A study of Rattus norvegicus with 30 samples.

Results

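Messenger RNA of 9 complement components, C3, C5, C6, C8a, C8b, C9, Cfb, Masp1 and Mbl2, was followed in cultured rat hepatocytes exposed to dioctyl phthalate, a phthalate ester used to soften plastics. The members were chosen by name, as the probe sets that the platform's gene table pairs with these 9 genes, and this gave 15 of the 31099 probe sets on the array. Of the 9 genes, 8 had a probe set of their own above the limit on low signals and were tested among 10528 genes. Cfb, complement factor B, shared each of its 4 probe sets with C2 in that table, so these 4 were read as probe sets and named for neither gene.

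Complement is a cascade of plasma proteins, most of them made and secreted by hepatocytes. The lectin pathway starts when mannose-binding lectin, the product of Mbl2, binds sugars on a microbe and its protease partners, among them the product of Masp1, become active. All routes meet at C3, whose cleavage is amplified by factor B in the alternative pathway. C5 is cleaved next, and its larger fragment gathers C6, C7, C8 (with alpha, beta and gamma chains) and C9 into the membrane attack complex, a pore in the target membrane. Several of these genes, C3 and C9 among them, are acute-phase genes, which the liver makes more of when it receives inflammatory cytokines such as interleukin-6.

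The cells were purchased frozen primary hepatocytes of male Sprague Dawley rats, thawed and cultured under Matrigel. Dosing took place on day 3 of culture, and RNA was taken 24 or 48 h later. The 6 groups were vehicle (1% DMSO) at 24 h, 250 µM dioctyl phthalate at 24 h, 1000 µM at 24 h, and the same 3 treatments at 48 h. The labels give DMSO as the solvent of the doses too. Each group held 5 arrays of separate wells, 30 arrays in all, and the labels do not say how many rats or vials the wells came from. The errors and p-values below therefore measure the spread between wells. The stated purpose was a dose and time series for this compound, as 1 of 10 compounds studied in the same cells at different times.

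Values are log2 of the deposited signal plus 1, and a change is a difference of group means on that scale, with its standard error (SE) from limma. A gene is called higher or lower when its Benjamini-Hochberg adjusted p over the 10528 tested genes was under 0.05. A probe set's signal depends on its own probes, so no gene's level is set against another's. The RNA is that of the whole well, in which fewer cells of a type and less RNA per cell cannot be told apart. Arrays of a group correlated at 0.968 to 0.986 across genes. As a sign of RNA quality, the beta-actin control read near the 3' end was set against that near the 5' end, and this log2 ratio was 0.977 to 1.51 on the 25 arrays outside the vehicle group at 48 h. In that group it was 2.44, 1.74, 1.70, 1.04 and 1.66 on replicates 1 to 5, so that 4 of the 5 vehicle arrays at 48 h stood above every other array and replicate 4 did not. The members' comparisons with that group are given below with all 5 arrays and then in ways that treat the 4 apart, and those of other named genes where a call was lost.

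Promoter sequence, 250 bases before to 50 bases after the start of transcription, was present for 7 of the 9 members in a RefSeq table of the rat build GRCr8. C9 and Cfb had none there. The following 4 are those of the members called against vehicle at 48 h, save C9. The changes described below can be set beside the sequence from which each gene is read. Capitals mark a match to a binding motif of C/EBP (TTGCNNAA, a liver and acute-phase factor) in C3 and C6, of HNF1 (a hepatocyte factor) in C5, and of the TATA box (TATAAA) in C6. Masp1 has no match. The C3 window lies at chr9:2201290-2201589 on the minus strand, that of C5 at chr3:38759419-38759718 on the minus strand, that of C6 at chr2:55573383-55573682 on the plus strand and that of Masp1 at chr11:90839472-90839771 on the plus strand.
C3: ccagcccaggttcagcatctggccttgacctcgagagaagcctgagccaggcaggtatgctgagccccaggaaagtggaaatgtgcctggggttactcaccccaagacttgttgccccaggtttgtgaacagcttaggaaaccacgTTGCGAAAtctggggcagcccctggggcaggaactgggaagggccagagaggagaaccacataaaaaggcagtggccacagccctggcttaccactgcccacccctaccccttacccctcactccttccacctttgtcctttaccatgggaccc
C5: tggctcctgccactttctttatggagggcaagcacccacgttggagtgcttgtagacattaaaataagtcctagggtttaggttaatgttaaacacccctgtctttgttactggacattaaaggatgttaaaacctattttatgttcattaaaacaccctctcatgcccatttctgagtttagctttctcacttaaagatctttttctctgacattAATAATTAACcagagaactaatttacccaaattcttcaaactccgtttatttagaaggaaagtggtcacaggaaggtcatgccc
C6: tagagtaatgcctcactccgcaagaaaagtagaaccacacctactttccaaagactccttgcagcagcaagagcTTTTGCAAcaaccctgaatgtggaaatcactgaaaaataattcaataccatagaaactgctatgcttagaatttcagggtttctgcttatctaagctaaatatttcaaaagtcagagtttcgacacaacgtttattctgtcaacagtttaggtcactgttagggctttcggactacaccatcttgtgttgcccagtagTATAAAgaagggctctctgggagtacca
Masp1: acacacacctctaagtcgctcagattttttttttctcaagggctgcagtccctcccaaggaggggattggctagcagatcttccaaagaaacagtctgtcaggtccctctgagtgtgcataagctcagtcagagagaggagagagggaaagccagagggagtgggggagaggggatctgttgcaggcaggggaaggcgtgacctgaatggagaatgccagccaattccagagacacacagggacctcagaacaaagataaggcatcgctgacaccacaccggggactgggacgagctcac
Positions are counted from the start of transcription, with the base before it as -1. In C3 the C/EBP match, TTGCGAAA, spans -104 to -97. In C6 it lies on the opposite strand, TTTTGCAA at -176 to -169, and TATAAA spans 23 to 28 after the start. The HNF1 match of C5 lies on the opposite strand as AATAATTAAC at -34 to -25. Both strands were searched for 6 motifs, the other 3 being STAT (TTCNNNGAA), NF-kB and the nuclear receptor repeat DR1. Among the members not shown, C8a matched C/EBP and STAT, C8b matched C/EBP and Mbl2 matched none. Of 33469 rat promoter windows of this length, 10.6% held the C/EBP motif, 8.87% STAT, 5.37% NF-kB, 0.335% HNF1, 0.415% DR1 and 14.2% TATAAA. A match describes letters only and does not show that a factor binds there.

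At 24 h the transcripts of C3 and C9 fell at both doses, and that of Masp1 fell at 250 µM. At 48 h C3, C9 and Masp1 were below vehicle of that time at both doses, C6 was below it at 1000 µM, and C5 was above it at both. C8a, C8b and the leading probe set of Mbl2 passed the test in none of the 4 comparisons of a dose with vehicle. In numbers, 3 of the 8 tested members were called at 250 µM and 24 h, all lower, where 19.3% of all genes were called, 8.31% higher and 11% lower. At 1000 µM and 24 h it was 2 of 8, both lower, where 19.5% of all genes were called, 8.28% higher and 11.2% lower (872 and 1179 genes, or 677 and 607 with array medians centred). At 250 µM and 48 h, 1 member was higher and 3 were lower, against 41.2% of all genes called, 15.2% higher and 26% lower. At 1000 µM and 48 h, 1 was higher and 4 were lower, against 29.7% called, 11.5% higher and 18.3% lower. The median change of the members in these comparisons was -0.17, -0.05, -0.21 and -0.31, beside -0.03, -0.03, -0.07 and -0.04 for all genes tested. The 4 comparisons share vehicle groups in pairs: both doses at a time are set against the same 5 arrays.

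**Figure D1:**
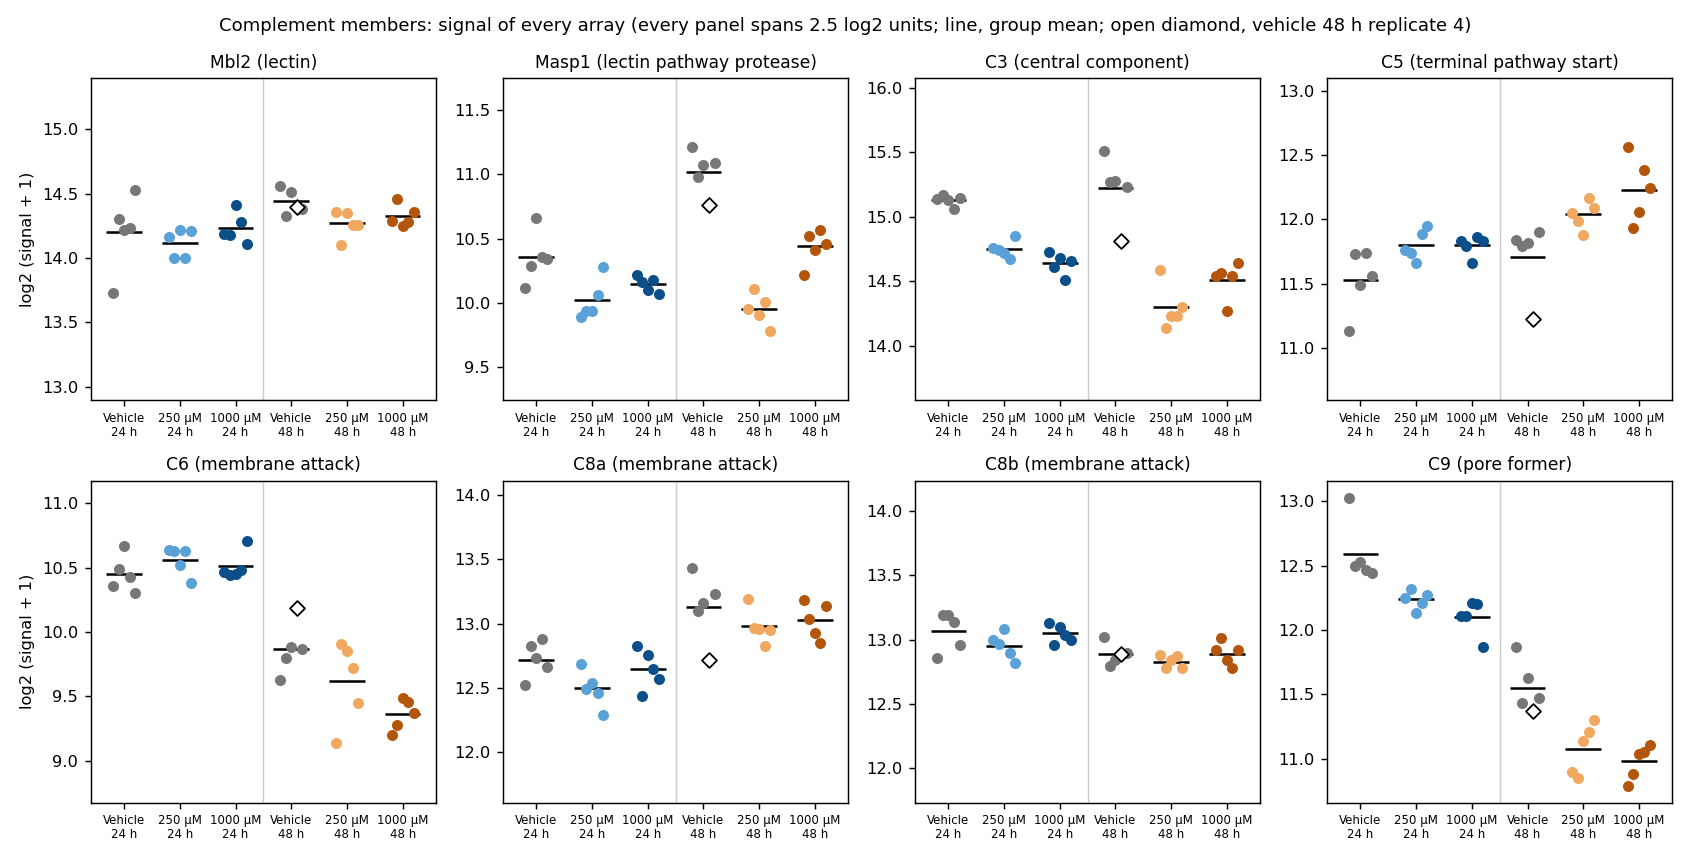
Signal of each of the 8 tested members on every array, as log2 (signal + 1), by dose and time; the bars are group means of 5 arrays, each panel spans the same number of log2 units, and the open diamond is vehicle replicate 4 at 48 h. The treated arrays of C3 lie below the vehicle arrays at both times, C9 falls with time and with dose, C5 is highest at 1000 µM and 48 h, and C8b stays within 0.24 over its group means.

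Masp1, a serine protease of the lectin pathway, was lower than vehicle at 48 h at both doses. From 24 to 48 h its group mean went from 10.36 to 11.02 in vehicle, from 10.02 to 9.95 at 250 µM and from 10.15 to 10.44 at 1000 µM. Its log2 signal in vehicle at 48 h was 11.21, 10.98, 11.07, 10.76 and 11.09, and at 250 µM it was 9.95, 10.11, 9.91, 10.01 and 9.78. At 1000 µM and 48 h it was 10.22, 10.52, 10.41, 10.57 and 10.46. The 3 groups did not overlap at 48 h: vehicle was highest, 1000 µM was between, and 250 µM was lowest. The change was -1.07 (SE 0.0981, adjusted p = 1.2e-10 by limma) at 250 µM, which left 47.7% of the vehicle signal, and -0.58 (SE 0.0981, adjusted p = 1.9e-05) at 1000 µM, which left 66.7%. At 24 h the vehicle arrays read 10.12, 10.29, 10.66, 10.36 and 10.34, those at 250 µM 9.89, 9.94, 9.94, 10.06 and 10.28, and those at 1000 µM 10.22, 10.16, 10.10, 10.18 and 10.07. These overlapped: the change was -0.34 (SE 0.0981, adjusted p = 0.0122 by limma) at 250 µM and -0.21 (SE 0.0981, adjusted p = 0.142) at 1000 µM. The call at 250 µM and 24 h was lost without vehicle replicate 3 at 24 h (-0.26, adjusted p = 0.0648), with array medians centred (-0.32, adjusted p = 0.062), in a fit of the 2 groups alone (adjusted p = 0.059) and in the mean of the gene's probe sets (-0.19, adjusted p = 0.139). A further Masp1 probe set above the limit, 1389543_at, was also lower at 48 h, by -0.26 at 250 µM (adjusted p = 0.119) and -0.29 at 1000 µM (adjusted p = 0.109), and neither passed the test. The remaining one, 1371116_at, had a mean log2 signal of 4.93, under the limit of 7.88, and was not tested.

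Mbl2, the lectin that recognises sugars, was read by 2 probe sets that did not move alike. Its leading probe set, 1379240_at, read 14.56, 14.33, 14.51, 14.40 and 14.38 in vehicle at 48 h, 14.36, 14.10, 14.35, 14.26 and 14.26 at 250 µM, and 14.29, 14.46, 14.25, 14.28 and 14.36 at 1000 µM. The groups overlapped, with changes of -0.17 (95% interval to 0.01, adjusted p = 0.13 by limma) at 250 µM and -0.11 (adjusted p = 0.394) at 1000 µM. The 24 h changes were -0.09 and 0.03. Without vehicle replicate 1 at 24 h, Mbl2 passed the test at 250 µM as lower both at 24 h (-0.20, adjusted p = 0.0375) and at 48 h (-0.17, adjusted p = 0.0382), and after quantile normalization it did so at 48 h (-0.29, adjusted p = 0.00398). Its other probe set, 1387528_at, read 11.96, 11.94, 11.90, 12.66 and 12.07 in vehicle at 48 h, and 12.20, 12.36, 12.48, 12.69 and 12.63 at 250 µM. That is a change of 0.37 (SE 0.123, adjusted p = 0.0186 in the fit of 18625 probe sets, where 35.2% were called), higher where the leading probe set was lower. Vehicle replicate 4 was its highest vehicle array, within the range of the dosed arrays.

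**Figure D2:**
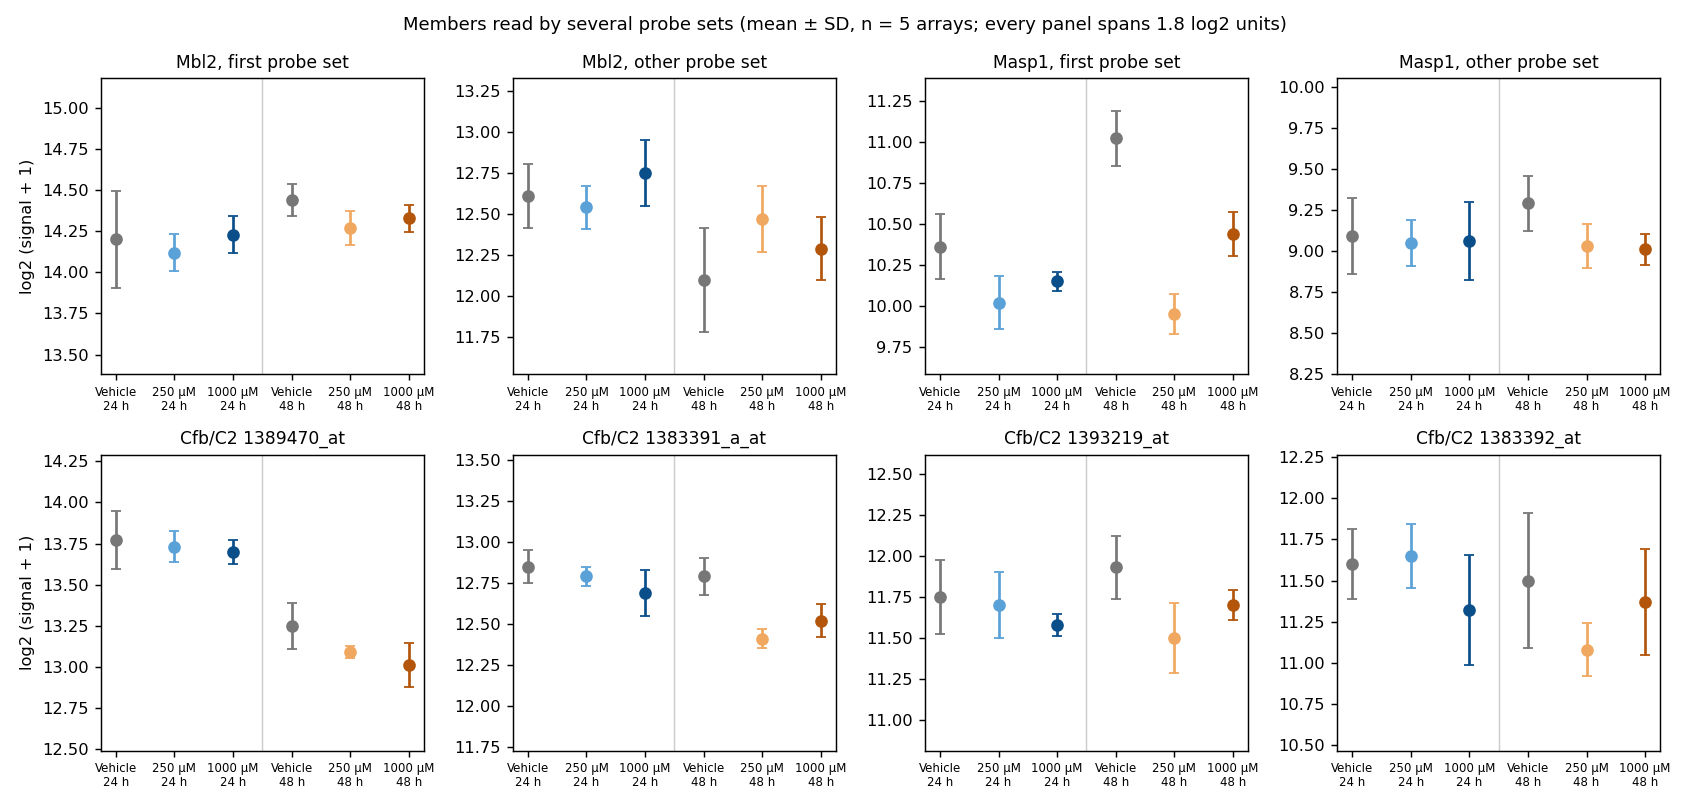
Members read by more than 1 probe set, as mean and SD of 5 arrays in log2 (signal + 1) by dose and time, each panel spanning the same number of log2 units. The first and the other probe set of Mbl2 move in opposite directions from 24 to 48 h in vehicle, those of Masp1 differ in the size of their changes, and the 4 probe sets shared by Cfb and C2 are lower in both dosed groups at 48 h than in vehicle.

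C3, the component on which all pathways meet, fell in all 4 comparisons. In vehicle at 24 h its log2 signal was 15.14, 15.17, 15.13, 15.06 and 15.15, a mean signal of 35896 ± 977 (SD, n = 5). At 24 h it was 14.76, 14.74, 14.72, 14.67 and 14.85 at 250 µM, and 14.73, 14.61, 14.68, 14.51 and 14.66 at 1000 µM. Every dosed array lay below every vehicle array, by -0.38 on average at 250 µM (SE 0.0853, adjusted p = 0.00105 by limma) and -0.49 at 1000 µM (SE 0.0853, adjusted p = 3.7e-05). At 48 h the vehicle arrays read 15.51, 15.27, 15.28, 14.81 and 15.23, those at 250 µM 14.59, 14.14, 14.23, 14.23 and 14.30, and those at 1000 µM 14.54, 14.56, 14.27, 14.54 and 14.64. Again no dosed array reached the lowest vehicle array, which was replicate 4. The change was -0.92 (SE 0.0853, adjusted p = 1.5e-10) at 250 µM and -0.71 (SE 0.0853, adjusted p = 5.7e-08) at 1000 µM, which left 52.8% and 61.2% of the vehicle signal.

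The probe sets that the table pairs with both Cfb and C2, the proteases of the C3 convertases of the alternative and the classical pathway, had changes below 0 at 48 h under both doses. None of the 4 was called by limma at 24 h, where 15.6% (250 µM) and 15.9% (1000 µM) of 18625 probe sets were, and 0 and 1 of them had an unadjusted p under 0.05. At 48 h and 250 µM, 3 of the 4 were called lower, where 35.2%, as above, were called in all: 1383391_a_at by -0.38 (adjusted p = 2.1e-05 by limma), 1393219_at by -0.43 (adjusted p = 0.00174) and 1383392_at by -0.42 (adjusted p = 0.0489). At 1000 µM it was 2 of 4, where 24.2% were called in all: 1383391_a_at by -0.27 (adjusted p = 0.00185) and 1389470_at by -0.24 (adjusted p = 0.016). For 1383391_a_at the vehicle arrays at 48 h read 12.81, 12.85, 12.91, 12.61 and 12.78, those at 250 µM 12.51, 12.38, 12.39, 12.42 and 12.36, and those at 1000 µM 12.45, 12.48, 12.45, 12.69 and 12.52. The lowest vehicle array was again replicate 4, below which all arrays at 250 µM lay. Set against that array alone, none of the 4 passed limma's test at either dose at 48 h, with adjusted p of 0.217 to 0.882. With the actin ratio as a covariate 1383391_a_at alone of the 4 passed, at both doses (-0.31, adjusted p = 0.00444, and -0.22, adjusted p = 0.0312).

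C5, which starts the terminal pathway, was higher after dosing. Its log2 signal at 48 h was 11.84, 11.79, 11.82, 11.23 and 11.90 in vehicle, 12.05, 11.99, 11.88, 12.17 and 12.09 at 250 µM, and 12.56, 11.93, 12.06, 12.38 and 12.24 at 1000 µM. All arrays at 1000 µM lay above all vehicle arrays, with a change of 0.52 (SE 0.115, adjusted p = 6.2e-04 by limma) or 144% of vehicle. At 250 µM the change was 0.32 (SE 0.115, adjusted p = 0.0225), and the lowest dosed array lay just below the highest vehicle array. Vehicle replicate 4 was far below the other 4 vehicle arrays, and without it the change at 250 µM was 0.20 (adjusted p = 0.116). The same call was lost without replicate 4 at 250 µM (0.29, adjusted p = 0.0598) and with array medians centred (0.33, adjusted p = 0.0545). At 24 h the changes were 0.27 (adjusted p = 0.101) and 0.26 (adjusted p = 0.109), with vehicle at 11.13, 11.73, 11.49, 11.74 and 11.56 and the 10 dosed arrays between 11.66 and 11.95.

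C9, which forms the ring of the pore, fell in all 4 comparisons. At 24 h its log2 signal was 13.03, 12.50, 12.53, 12.47 and 12.44 in vehicle, 12.25, 12.32, 12.13, 12.21 and 12.27 at 250 µM, and 12.11, 12.11, 12.21, 12.20 and 11.87 at 1000 µM. All dosed arrays lay below all vehicle arrays, and vehicle replicate 1 stood above its group. The change was -0.35 (SE 0.103, adjusted p = 0.0119 by limma) at 250 µM and -0.49 (SE 0.103, adjusted p = 5.4e-04) at 1000 µM. Without vehicle replicate 1 the former was -0.25 (adjusted p = 0.0683), and with array medians centred it was -0.34 (adjusted p = 0.0566). At 48 h the arrays read 11.87, 11.43, 11.63, 11.37 and 11.47 in vehicle, 10.90, 10.85, 11.14, 11.21 and 11.30 at 250 µM, and 10.79, 10.88, 11.04, 11.05 and 11.11 at 1000 µM. No dosed array reached the vehicle arrays, with changes of -0.47 (SE 0.103, adjusted p = 3.9e-04) and -0.58 (SE 0.103, adjusted p = 4.7e-05).

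C6, the first protein to join the fragment of C5 in the attack complex, was called against vehicle at 1000 µM and 48 h. At 48 h its log2 signal was 9.63, 9.80, 9.88, 10.19 and 9.87 in vehicle, 9.14, 9.91, 9.85, 9.72 and 9.45 at 250 µM, and 9.20, 9.28, 9.49, 9.46 and 9.37 at 1000 µM. The arrays at 1000 µM lay below all vehicle arrays, by -0.51 (SE 0.118, adjusted p = 0.00105 by limma), while those at 250 µM overlapped them (-0.26, SE 0.118, adjusted p = 0.0801). The change at 250 µM passed the test without vehicle replicate 1 (-0.32, adjusted p = 0.0388), without replicate 2 of the dose (-0.33, adjusted p = 0.029) or without its replicate 3 (-0.32, adjusted p = 0.0417). At 24 h the changes were 0.11 and 0.06, and neither passed. The change at 48 h minus that at 24 h, tested directly by limma, was not called at 250 µM (-0.37, adjusted p = 0.17) or 1000 µM (-0.57, adjusted p = 0.1).

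The alpha and beta chains of C8, encoded by C8a and C8b, passed the test in none of the 4 comparisons. C8a changed by -0.23 (95% interval to -0.03, adjusted p = 0.105 by limma), -0.07, -0.15 and -0.10 at 250 and 1000 µM after 24 h and then 48 h. C8b changed by -0.11, -0.02, -0.06 and 0.00, the last with a 95% interval from -0.12 to 0.13. The C8b arrays at 48 h read 13.02, 12.80, 12.84, 12.89 and 12.90 in vehicle and 12.92, 13.01, 12.84, 12.78 and 12.92 at 1000 µM, which overlap almost fully. C8b passed at 250 µM and 24 h without vehicle replicate 1 (-0.17, adjusted p = 0.0479), and C8a at 250 µM and 48 h without vehicle replicate 4 (-0.25, adjusted p = 0.0221). The sign of the C8a change at 48 h turned with the actin ratio as a covariate (0.15 at 250 µM and 0.13 at 1000 µM) and against replicate 4 alone (0.26 and 0.31), and no call was made there. C8a also passed at 250 µM and 24 h with the actin ratio as a covariate (-0.24, adjusted p = 0.0142).

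**Figure D3:**
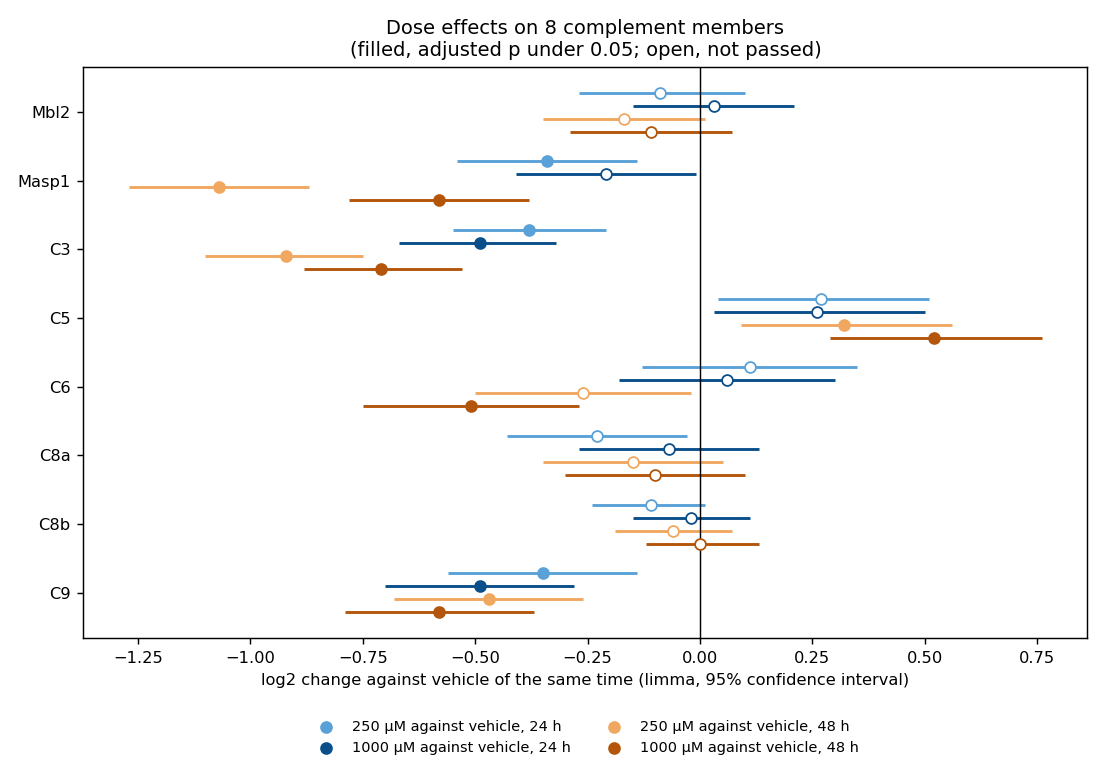
Change of each tested member against vehicle of the same time, in log2 units with the 95% confidence interval from limma; filled circles passed an adjusted p of 0.05. C3 and C9 are filled in all 4 comparisons, C5 lies to the right of 0 throughout, and the intervals of C8b lie within 0.24 of 0.

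The levels also moved with time in culture in vehicle alone, from 24 to 48 h: 6 of the 8 members were called, 3 higher and 3 lower, where 28.1% of all genes were called, 16.4% higher and 11.7% lower. With array medians centred the split over all genes was 1692 higher and 469 lower, in place of 1731 and 1232, and 5 members kept their call and side, C8b (-0.11, adjusted p = 0.516) being the exception. C9 fell by 1.04 (SE 0.103, adjusted p = 6.8e-09 by limma) to 48.6% of its 24 h signal, and the 2 groups did not overlap. C6 fell by 0.58 (SE 0.118, adjusted p = 4.5e-04), also without overlap, and C8b by 0.18 (SE 0.0619, adjusted p = 0.0309). Masp1 rose by 0.67 (SE 0.0981, adjusted p = 6.9e-06), with every 48 h array above every 24 h array, and C8a by 0.40 (SE 0.0977, adjusted p = 0.00231). With the actin ratio as a covariate the calls of C6 (-0.31, adjusted p = 0.178 by limma) and C8a (0.09, adjusted p = 0.623) were lost. C9 (-1.15), Masp1 (0.55) and C8b (-0.27) kept theirs. With replicate 4 as the sole vehicle array at 48 h, C6 was at -0.26, C8a at -0.01, Masp1 at 0.41, C8b at -0.18 and C9 at -1.23. The other tested probe set of Masp1, 1389543_at, rose by 0.20 and was not called (adjusted p = 0.264 by limma in the fit of probe sets). The leading probe set of Mbl2 rose by 0.23 (adjusted p = 0.0471), whereas 1387528_at fell by 0.50 (adjusted p = 0.00295 in the fit of probe sets, where 24.9% were called), so no direction is given for Mbl2. The call of the leading probe set of Mbl2 was also lost in 15 of the 30 fits that leave out 1 array, among them without vehicle replicate 1 at 24 h (0.11, adjusted p = 0.229) and without vehicle replicate 1 at 48 h (0.20, adjusted p = 0.121). C3 (0.09) and C5 (0.18) did not pass, and both did, as higher, without vehicle replicate 4 at 48 h (0.19, adjusted p = 0.0399, and 0.30, adjusted p = 0.0228). Their sign turned, with no call, under the actin covariate (C3 -0.21, C5 -0.06) and with replicate 4 as the sole vehicle array at 48 h (C3 -0.32, C5 -0.30). Without vehicle replicate 2 or 3 at 48 h, or without replicate 2, 3 or 4 of vehicle at 24 h, C8b was no longer called (-0.15 to -0.16). Among the probe sets shared by Cfb and C2, 1389470_at alone was called, and it fell by 0.52 (adjusted p = 4.7e-06). The others changed by -0.06 (1383391_a_at, adjusted p = 0.557 by limma), -0.11 (1383392_at, 0.689) and 0.18 (1393219_at, 0.22).

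For the leading probe set of Masp1 at 48 h, 1390585_at, the higher dose left the level closer to vehicle, and no other member was called between the doses. Between 1000 and 250 µM at 24 h limma called 0 of the 8 members, where 0.0190% of all genes (2 genes) were called, and 0 of the 8 had an unadjusted p under 0.05. At 48 h it called 1 member, Masp1, at 0.49 (SE 0.0981, adjusted p = 0.0408), where 0.0665% of genes (7 genes) and 0.0698% of probe sets were called, 0.0380% of genes as higher. Its level was higher at 1000 than at 250 µM on every array at 48 h. Leaving out 1 array ended this call in 17 of the 30 cases, the change then staying between 0.44 and 0.50. The mean of the probe sets gave 0.23 (adjusted p = 0.32). The other tested probe set, 1389543_at, differed between the doses by -0.02 (adjusted p = 0.968 by limma in the fit of probe sets). The other 7 members differed between the doses at 48 h by -0.25 (C6) to 0.21 (C3), with adjusted p of 0.315 to 0.874.

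Whether a dose acted differently at the 2 times was tested directly, as the change at 48 h minus that at 24 h. At 250 µM the difference was called for 2 of the 8 members, where 8.36% of all genes and 6.09% of probe sets were called, 4.52% of genes as lower: -0.54 for C3 (SE 0.121, adjusted p = 0.00505 by limma) and -0.73 for Masp1 (SE 0.139, adjusted p = 0.00119), both lower at 48 h. At 1000 µM limma called 0 of 8, where 0.969% of genes were called, and C6 (-0.57) and Masp1 (-0.37) had an unadjusted p under 0.05 (0.00168 and 0.0112). The other tested probe set of Masp1, 1389543_at, differed at 250 µM by -0.22 (adjusted p = 0.527 by limma in the fit of probe sets). In that fit the probe set 1383391_a_at of Cfb and C2 differed at 250 µM by -0.32 (adjusted p = 0.0352). No other probe set of Cfb and C2 was called there (adjusted p of 0.12 to 0.543). With the actin ratio as a covariate 1383391_a_at was at -0.25 (adjusted p = 0.291), and with vehicle replicate 4 alone at 48 h it was at -0.13.

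The vehicle arrays at 48 h weigh on all of these results, so the changes at 48 h were computed in further ways. With the actin ratio as a covariate, 26.4% and 22% of all genes were called at 250 and 1000 µM, in place of 41.2% and 29.7%. C3 (-0.63 and -0.50), C9 (-0.37 and -0.50), Masp1 (-0.95 and -0.50) and C5 (0.56 and 0.69) kept direction and call at both doses, and C6 was then called at both (-0.52 and -0.71). Without the 4 vehicle arrays of raised ratio, replicate 4 is the sole vehicle array at 48 h and is assumed to vary like the other groups. In that fit 13.1% and 11.2% of all genes were called. At 250 µM C3 (-0.51, adjusted p = 0.00262 by limma), Masp1 (-0.81, adjusted p = 1.0e-03) and C5 (0.81, adjusted p = 0.00186) were called, and C9 was not (-0.28, adjusted p = 0.338). At 1000 µM C5 (1.01, adjusted p = 1.7e-04) and C6 (-0.83, adjusted p = 0.00485) were called, and C3 (-0.30, adjusted p = 0.108), C9 (-0.39, adjusted p = 0.162) and Masp1 (-0.33, adjusted p = 0.263) were not. The direction of these 5 members was that of the full fit in each case. For time in vehicle, the covariate left C8b, C9 and Masp1 called, where 7.11% of all genes were called in place of 28.1%. With replicate 4 alone C9 was at -1.23. The difference between times at 250 µM was -0.13 for C3 and -0.47 for Masp1 with replicate 4 alone. With the covariate it was -0.25 (adjusted p = 0.179 by limma) for C3 and -0.61 (adjusted p = 0.0259) for Masp1. C6 was then also called for this difference, at 250 µM (-0.64, adjusted p = 0.033) and at 1000 µM (-0.77, adjusted p = 0.0112). The shares of all genes called for it with the covariate were 2.36% and 0.703%, in place of 8.36% and 0.969%. Mbl2 at 48 h was at -0.04 and -0.02 with the covariate and at -0.14 and -0.08 against replicate 4 alone, and C8b was at 0.03 and 0.07, and at -0.06 and 0.00, with no call.

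**Figure D4:**
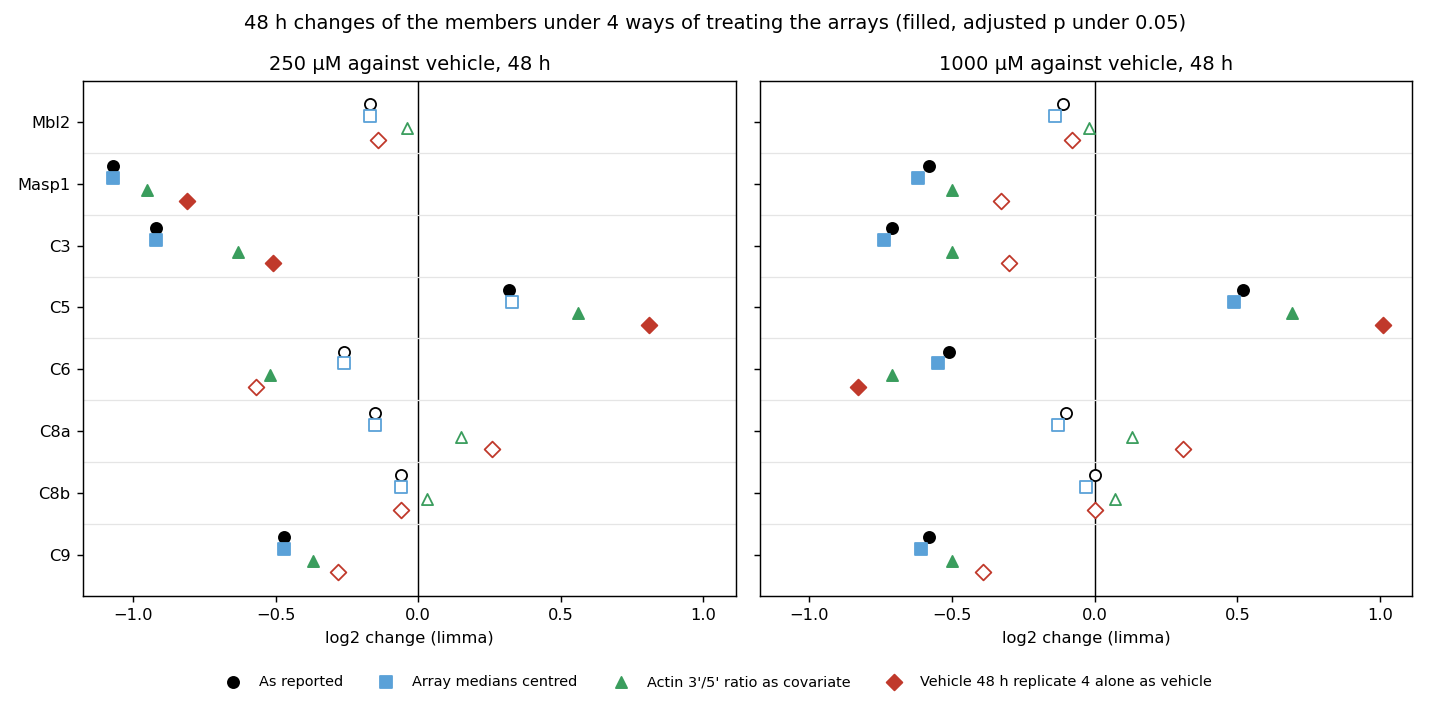
Change at 48 h of each tested member against vehicle, in log2 units, at 250 µM (left) and 1000 µM (right), under 4 ways of treating the arrays; filled symbols passed an adjusted p of 0.05. Against vehicle replicate 4 alone (diamonds), C3, Masp1 and C9 lie closer to 0, and C5 and C6 farther from it, than as reported (circles).

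The members spread differently over the 6 groups. The gap between the highest and the lowest group mean was 1.62 for C9, 1.20 for C6, 1.07 for Masp1, 0.92 for C3, 0.70 for C5, 0.63 for C8a, 0.32 for Mbl2 and 0.24 for C8b, against SDs within groups of 0.0398 to 0.317. In order of level, C9 ran from 1000 µM at 48 h through 250 µM and vehicle at 48 h to 1000 µM, 250 µM and vehicle at 24 h. Its neighbours in that order overlapped between the 2 doses at each time and were apart elsewhere. C3 had the 4 dosed groups, each overlapping the next, below both vehicle groups. Masp1 had its single gap below vehicle at 48 h, and C6 its single gap between the times. For C5, C8a, C8b and Mbl2 every group overlapped its neighbours. Over the 30 arrays, which share the 6 treatments, C6 and C9 had a Pearson r of 0.85, C3 and Masp1 0.66, C5 and C9 -0.68, C6 and C8a -0.76, and the paired chains C8a and C8b -0.15.

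Among 10499 genes outside the complement lists, the 2 with the pattern most like each member over these 30 arrays were found by Pearson r. For C3 they were Fn1 (fibronectin, r = 0.94) and Arrdc4 (0.94), and for Masp1 Cttnbp2nl (0.89) and Net1 (0.89). For C5 they were Marchf8 (0.89) and Pc (pyruvate carboxylase, 0.86). C6 was nearest Ifitm3 (0.95) and Il1rn (0.93), and C9 nearest Bst2 (0.95) and Apoa2 (0.94). C8a was nearest Aldh1l1 (0.92) and Kpna3 (0.91), C8b nearest Vkorc1 (0.80) and Serpina3m (0.76), and Mbl2 nearest Ftcd (0.85) and Lims2 (0.81). The arrays share their treatment groups, and these values describe likeness alone.

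Of 41 other complement genes, 21 were tested, 7 lay under the limit on low signals (C1qb, Fcna, Fcnb, Cd55, Cr2, C3ar1 and C5ar1, receptors of the C3 and C5 fragments among them) and 13 had no probe set of their own. At 24 h, 1 rose and 6 fell at 250 µM, and 1 rose and 5 fell at 1000 µM. At 48 h, 6 rose and 6 fell at 250 µM, and 4 rose and 6 fell at 1000 µM. Their median changes were -0.12, -0.10, -0.05 and -0.09, and the shares called among all genes are those given above. Between the doses 0 of the 21 were called at either time by limma, and 0 (24 h) and 3 (48 h) had an unadjusted p under 0.05. With array medians centred, 3 were called at each dose at 24 h. At 48 h, against vehicle replicate 4 alone, 3 rose and 6 fell at 250 µM, and 2 rose and 6 fell at 1000 µM.

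Among the genes that start the cascade, C1r and C1s, the proteases of the C1 complex of the classical pathway, fell in all 4 comparisons. C1s read 12.93, 12.91, 12.85, 12.79 and 13.08 in vehicle at 48 h and 11.66, 11.59, 11.63, 11.67 and 11.77 at 250 µM, with no overlap. Its changes at 250 and 1000 µM were -0.60 and -0.61 at 24 h, and -1.25 (SE 0.0731, adjusted p = 1.7e-15 by limma) and -1.02 at 48 h. Those of C1r were -0.80, -0.87, -1.02 and -1.0. Against vehicle replicate 4 alone both stayed called at 48 h, C1s at -1.13 and -0.90 and C1r at -0.90 and -0.88. Mbl1, the other mannose-binding lectin of the rat, rose at 48 h by 0.68 (SE 0.0773, adjusted p = 1.1e-08) and 0.52, and at 24 h it changed by -0.14 and -0.02. Against replicate 4 alone Mbl1 was still called at 48 h (0.60 and 0.43). The protease gene Masp2 was called at 250 µM and 48 h (0.24, adjusted p = 0.00572), and the call was lost with medians centred (adjusted p = 0.0518), with the actin covariate (0.0717) and against replicate 4 alone (0.08, adjusted p = 0.767).

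In the alternative pathway Cfd, factor D, which cleaves factor B, rose at 48 h by 1.83 (SE 0.427, adjusted p = 7.6e-04 by limma) and 1.78. Its vehicle arrays read 7.47, 7.62, 3.84, 7.81 and 7.44, all under the limit of 7.88, and the arrays at 250 µM read 8.20, 8.70, 8.94, 8.77 and 8.75. Without vehicle replicate 3, the array at 3.84, the changes were 1.09 (adjusted p = 1.3e-04) and 1.03 (adjusted p = 3.6e-04). Against replicate 4 alone they were 0.86 (adjusted p = 0.118) and 0.81 (adjusted p = 0.163). Cfp, properdin, and the gamma chain C8g of the terminal pathway were not called at any dose.

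Of 10 inhibitors and inactivators, 1 rose and 4 fell at 250 µM and 24 h, 1 rose and 2 fell at 1000 µM and 24 h, 3 rose and 4 fell at 250 µM and 48 h, and 2 rose and 4 fell at 1000 µM and 48 h. Cd46, a membrane cofactor for cleavage of C3b, rose in all 4, by 0.63, 0.50, 1.04 (SE 0.115, adjusted p = 7.0e-09 by limma) and 1.06. It read 8.99, 9.13, 9.07, 9.47 and 9.05 in vehicle at 48 h and 10.23, 10.27, 10.10, 10.11 and 10.18 at 250 µM, without overlap. Against replicate 4 alone the 48 h changes of Cd46 were 0.71 and 0.74, both called. Cd59b, which blocks the pore, rose at 48 h by 0.43 and 0.26, and against replicate 4 alone it was at 0.14 and -0.03 and not called. The Cd59b call at 1000 µM was also lost with medians centred (adjusted p = 0.0748) and with the covariate (0.115). Vtn, vitronectin, fell at 48 h by 0.43 and 0.45, and the factor I gene Cfi by 0.27 and 0.31 at 48 h and 0.20 at 250 µM and 24 h, where it was lost with medians centred (adjusted p = 0.197). Against replicate 4 alone both were still called at 48 h, Vtn at -0.44 and -0.45 and Cfi at -0.31 and -0.35. Serping1, the C1 inhibitor, fell in all 4 comparisons, by 0.22, 0.29, 0.20 and 0.22. With medians centred all 4 calls were lost (adjusted p by limma 0.213 and 0.0889 at 24 h, 0.123 and 0.0551 at 48 h). Its 48 h calls were also lost with the actin covariate (adjusted p = 0.588 and 0.282) and against replicate 4 alone. The 48 h calls also ended without single arrays, such as vehicle replicate 1 at 48 h (-0.15 and -0.17). So did the call at 250 µM and 24 h, for example without vehicle replicate 5 at 24 h (-0.19, adjusted p = 0.0763). Smaller changes were those of Cr1l (-0.14 at 250 µM and 24 h, -0.15 and -0.16 at 48 h), Cpn1 (-0.30 and -0.21 at 24 h), C4bpa (0.19 at 250 µM and 48 h) and, among receptors, C1qbp (-0.17 at 1000 µM and 24 h). With medians centred none of these calls held: the adjusted p was 0.458, 0.166 and 0.0995 for Cr1l, 0.0521 and 0.264 for Cpn1, 0.105 for C4bpa and 0.338 for C1qbp. At 24 h the calls of Cr1l and of C1qbp also ended without single arrays, such as vehicle replicate 4 (-0.13, adjusted p = 0.0672, and -0.16, adjusted p = 0.0609). Against replicate 4 alone Cr1l (-0.26 at both doses) and C4bpa (0.34) were called at 48 h, and C1qbp was then called there too (-0.30 and -0.36), as it was with the actin covariate (-0.23 and -0.24).

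**Figure D5:**
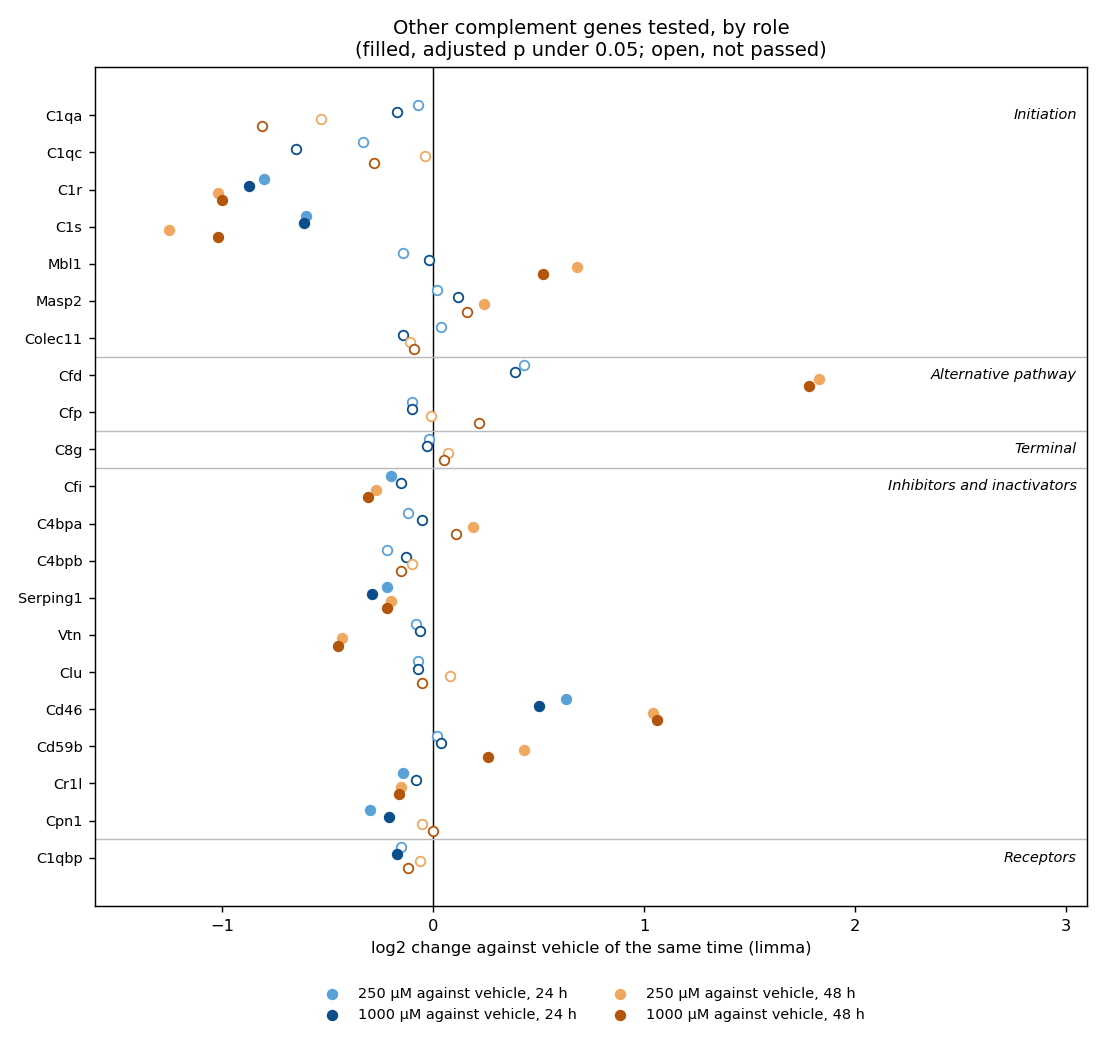
Change of the 21 other complement genes tested against vehicle of the same time, in log2 units, grouped by role; filled circles passed an adjusted p of 0.05. C1r and C1s lie to the left of 0 and Cd46 to the right in all 4 comparisons, Cfd is filled at 48 h alone, and the receptor and terminal groups hold 1 gene each.

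Among genes of the cytokine signals that drive complement expression in liver, Il6r, Il6st, Rela and Cebpd fell in all 4 comparisons and Cebpb rose. Of 18 tested, 1 rose and 9 fell at 250 µM and 24 h, 1 rose and 8 fell at 1000 µM and 24 h, and 1 rose and 11 fell at each dose at 48 h, with medians of -0.38, -0.45, -0.52 and -0.45. The shares of all genes called in these comparisons were 19.3%, 19.5%, 41.2% and 29.7%. The interleukin-6 receptor Il6r changed by -0.88 (SE 0.12, adjusted p = 7.5e-07 by limma), -0.77, -0.90 and -0.77, and its partner Il6st by -0.40, -0.49, -0.60 and -0.49. The NF-kB subunit Rela changed by -0.47, -0.44, -0.85 and -0.82. Cebpd, a C/EBP factor induced in the acute phase, changed by -0.88, -0.73, -0.87 and -0.71, while Cebpb rose by 0.25, 0.19, 0.63 and 0.51. With medians centred the calls at 1000 µM and 24 h of Cebpb (adjusted p = 0.0627) and Rela (0.0545) were lost. Against vehicle replicate 4 alone, 1 of the 18 rose and 5 fell at each dose at 48 h, where 13.1% and 11.2% of all genes were called, and Il6r was no longer among them (-0.55, adjusted p = 0.0781, and -0.42, adjusted p = 0.224). Of 10 liver transcription factors, 1 rose and 3 fell, 1 rose and 1 fell, 3 rose and 4 fell, and 4 rose and 2 fell, in the same order and beside the same shares of all genes. Against replicate 4 alone, 2 rose and 1 fell at 250 µM and 48 h, and 1 rose and 2 fell at 1000 µM. With the covariate 2 rose and 1 fell at 250 µM and 48 h, and with medians centred 1 rose and 0 fell at 1000 µM and 24 h. Nr1h4, the bile acid receptor, rose in all 4 (0.81, 0.69, 0.70 and 0.61), and at 48 h also against replicate 4 alone (0.85 and 0.75).

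The cells carried the RNA of hepatocytes: all 12 measured hepatocyte markers were above the limit, with a summed signal of 430513 to 716386 over the arrays. At 24 h it was 510586 to 716386 in vehicle and 430513 to 580091 in the dosed groups. At 48 h it was 514228 to 598985 in vehicle, 455519 to 520086 at 250 µM and 433253 to 501240 at 1000 µM. At 24 h Asgr1 was called higher and Ahsg, Fga, Fgb and Tat lower at both doses. At 48 h the same genes were called, with Hnf4a (250 µM) or Serpina1 (1000 µM) also lower, beside the shares of all genes given above. The median change at 48 h was -0.14 and -0.20. Of 14 measured Kupffer cell and leukocyte markers, 6 were under the limit (Cd163, Cd5l, Ptprc, Adgre1, C1qb and Laptm5), and the list shares C1qa, C1qb and C1qc with the complement genes. Their summed signal was 23903 to 30541 in vehicle at 24 h and 25176 to 29030 in the dosed groups there. At 48 h it was 21180 to 23916 in vehicle, 24050 to 25961 at 250 µM and 21380 to 24099 at 1000 µM. Of 10 stellate cell markers, 4 were under the limit (Col1a2, Lrat, Pdgfrb and Dcn). Their sum at 48 h was lower in both dosed groups, which overlapped: 33913 to 40569 in vehicle, 15331 to 19895 at 250 µM and 17221 to 21057 at 1000 µM. Vim and Lox were called lower at both doses and Col1a1 was called higher at 250 µM. The median change of the 6 that were tested was -0.09 and -0.11. At 24 h the sum was 19522 to 42787 in vehicle and 21311 to 25435 in the dosed groups, with Acta2 and Vim called lower at both doses. Of 6 endothelial markers 4 were under the limit, with sums of 713 to 1859 over the arrays. Of 4 cholangiocyte markers 3 were under it, with sums of 10002 to 15450. The part of these cell types in the members' changes was not tested.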

How the data were processed

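RNA of 30 wells was hybridised to Affymetrix rat arrays, 1 array per well. The deposited values are linear intensity signals, 1 per probe set, which the authors made with MAS5, per the submitters' processing notes. No version or setting of it is stated in the labels. Array means with 2% trimmed off both tails were 1500.6 to 1500.7, and array medians of the log2 signal were 8.44 to 8.79, so no further scaling was applied. Signals were turned to log2 after adding 1. From 31099 probe sets, 57 controls and the 40% with the lowest mean were left out (limit 7.88, signal 234), which left 18625, of which 14112 had 1 gene in the platform table. The probe set with the highest mean stood for each of 10528 genes. Of 20832 probe sets with 1 gene, 20764 had their gene ID in a RefSeq gene table and took their symbol from it, whether or not it differed. The 436 with several genes were named for none.

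The model was fitted with limma 3.58.1 (R 4.3.3) to 6 group means, 24 residual degrees of freedom, a variance trend and 9 contrasts. Benjamini-Hochberg adjustment ran over all tested genes. The fit was tested on simulated data. The number of arrays limits the precision. The members, the gene lists, the rule for named genes and the alternatives were chosen with earlier results of these data known. The rule named all members, the other complement genes called in at least 1 comparison with vehicle, and 2 genes of like pattern per member. Signalling genes, transcription factors and markers that it does not cover were picked with their values in view.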

Additional observations from a re-analysis of the deposited data

Results flagged for a closer look

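In 4 of the 48 groups of 5 arrays (8 members, 6 groups) the highest or the lowest array stood apart from the rest of its group, where chance gives about 1 in 20. C3 on replicate 3 of 1000 µM at 48 h read 14.27 with the nearest array at 14.54, a gap of 0.719 of the group's range. C5 on vehicle replicate 4 at 48 h read 11.23 against 11.79 (0.838 of the range). C6 on replicate 5 of 1000 µM at 24 h read 10.71 against 10.48 (0.864 of the range). C9 on vehicle replicate 1 at 24 h read 13.03 against 12.53 (0.842 of the range).

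The effect of a dose differed between the times, by the interaction test of limma with an adjusted p under 0.05, in these genes. At 250 µM the effect at 48 h minus that at 24 h was -0.54 for C3, -0.73 for Masp1, -0.65 for C1s, 0.83 for Mbl1, 0.31 for C4bpa, -0.35 for Vtn and 0.41 for Cd59b. At 1000 µM it was -0.41 for C1s and 0.54 for Mbl1. Of the 21 other complement genes tested, these were 5 at 250 µM and 2 at 1000 µM, where 8.36% and 0.969% of all genes were called. The shares of all genes were 1.42% and 0.152% with medians centred, and 2.36% and 0.703% with the actin covariate. Of the 5 other complement genes at 250 µM, 2 stayed called with array medians centred (C1s and Mbl1), 3 with the actin covariate (C1s, Mbl1 and C4bpa) and 1 against vehicle replicate 4 alone at 48 h (Mbl1, 0.74). Of the 2 at 1000 µM, 0 stayed with medians centred (adjusted p by limma 0.332 for C1s and 0.3 for Mbl1), 1 with the covariate (Mbl1) and 0 against replicate 4 alone (0.513 and 0.227).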

How the results depend on the processing

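Over 13 alternatives, the changes of the 8 members in 9 comparisons kept direction and side of the threshold in 871 of 936 cases, lost the call in 34 and gained it in 6. Part of this count was fixed by design. A fit of every probe set on its own, or without vehicle arrays at 48 h, leaves the dose changes at 24 h at their size. In 23 more cases a change that was called in neither fit turned its sign: 3 with medians centred, 4 with the mean of probe sets, 8 with the actin covariate and 8 without the 4 vehicle arrays. A called change turned its sign in 2 cases: time in vehicle for Mbl2 as the mean of its probe sets (-0.13, adjusted p = 0.244) and for C8a without the 4 vehicle arrays of raised actin ratio (-0.01, adjusted p = 0.997). With array medians centred, 1 member was called at 250 µM and 24 h (C3) and 1 in the difference between times at 250 µM (Masp1). The Masp1 call between doses at 48 h fell to 0 with medians centred, quantile normalization, no filter on low signals, the mean of probe sets, the groups compared alone, the title-number block and the actin covariate. With that covariate, time in vehicle left 3 members called, beside 7.11% of all genes. The difference between times at 1000 µM gained 1 (C6), beside 0.703% of all genes. Without the 4 vehicle arrays, 2 members were called at 1000 µM and 48 h, 1 for time in vehicle and 0 for the difference between times at 250 µM. Leaving out 1 array in turn gave counts of 2 to 4 (250 µM) and 2 to 2 (1000 µM) at 24 h, 3 to 5 and 5 to 5 at 48 h, 0 to 0 and 0 to 1 between doses at 24 and 48 h, 4 to 8 for time in vehicle, and 2 to 2 and 0 to 1 for the differences between times. The 1 in the last case was C6 without replicate 1 of 250 µM at 48 h (-0.57, adjusted p = 0.0495). With medians centred 12.6%, 12.2%, 32.6% and 23.4% of genes were called in the 4 comparisons with vehicle, and the difference between times was called in 150 genes at 250 µM and 16 at 1000 µM, in place of 880 and 102. Alternatives for the gene lists and for the probe sets of Cfb and C2 were added after seeing the data. The titles number the arrays in sets of 6 with 1 array of each group, and the labels do not say that a set shares a batch or animal. With these sets as a block, Masp1 between doses was 0.49 (adjusted p = 0.0588), and no other member's call changed.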
